A study of Mus musculus with 12 samples.

Results

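The sarcomeric myosin heavy chain genes examined here are the 8 named *Myh1*, *Myh2*, *Myh3*, *Myh4*, *Myh6*, *Myh7*, *Myh7b*, and *Myh8*, which were taken by name from the 55536 genes of the count table. All 8 passed the filter on low counts that left 14499 genes to test. RNA was sequenced from C2C12GFP cells, a single mouse myoblast line that carries green fluorescent protein, after they had been placed under differentiation conditions on 4 kinds of plate with 3 samples each. Group 1 was the control, for which no coating is named. Group 2 was grown on Collagen I, a fibrillar collagen, group 3 on fibronectin, an adhesive glycoprotein, and group 4 on a thin gel of Geltrex™, a basement membrane matrix rich in laminin. The genotype and the low-serum medium were the same in all groups, the day of RNA sampling is not named for the sequenced samples, and nothing in the labels says whether the 3 samples of a group were separate cultures, so p-values measure only the spread between these samples, which may be technical.

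Myosin heavy chain forms the motor and the rod of the thick filament, and the isoform present sets how fast a fiber shortens and how much ATP it uses. Mammals carry the embryonic, adult fast, and perinatal skeletal genes side by side in 1 cluster and the cardiac genes as a separate pair. In developing muscle the embryonic gene *Myh3* and the perinatal gene *Myh8* come before the adult fast genes, which replace them as fibers mature. The adult fast genes are *Myh2* (type 2A), *Myh1* (type 2X), and *Myh4* (type 2B). The slow gene is *Myh7* (type 1, also the beta-cardiac chain). *Myh6* encodes the alpha-cardiac chain, and *Myh7b* encodes a more distant slow-tonic chain whose intron holds the microRNA gene *Mir499*. C2C12 myotubes are known to stay at an immature stage, in which the embryonic chain is plentiful.

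On mouse genome build GRCm38, 5 of the 8 genes lie within 1 stretch of chromosome 11 on the plus strand, in the order *Myh3* (67078300 to 67102291), *Myh2* (67171027 to 67197517), *Myh1* (67200052 to 67224575), *Myh4* (67238029 to 67260446), and *Myh8* (67277124 to 67308634). *Myh6* (54941921 to 54966927) and *Myh7* (54970684 to 54994626) are neighbors on the minus strand of chromosome 14, and *Myh7b* (155611212 to 155634307) is on the plus strand of chromosome 2. The DNA just before the gene start is shown for the embryonic, the perinatal, the adult fast, and the slow genes, as a description. All 8 genes had a promoter window from RefSeq on GRCm38.p6. The stretches of these windows shown here are written 5′ to 3′ on the gene's own strand and stop before the first annotated transcript base. Capitals mark a 14-base run that 4 of the genes share, matches to the MEF2 motif, and a match to the CArG motif.
Myh3, chr11:67078100-67078299, plus strand: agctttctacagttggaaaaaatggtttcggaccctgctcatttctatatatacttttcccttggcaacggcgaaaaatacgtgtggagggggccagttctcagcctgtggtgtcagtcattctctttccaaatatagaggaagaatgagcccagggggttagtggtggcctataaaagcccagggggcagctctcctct
Myh8, chr11:67276924-67277123, plus strand: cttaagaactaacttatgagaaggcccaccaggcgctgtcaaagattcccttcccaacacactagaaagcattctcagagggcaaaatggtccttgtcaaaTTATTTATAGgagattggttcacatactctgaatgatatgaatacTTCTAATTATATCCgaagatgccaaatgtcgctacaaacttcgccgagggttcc
Myh1, chr11:67199852-67200051, plus strand: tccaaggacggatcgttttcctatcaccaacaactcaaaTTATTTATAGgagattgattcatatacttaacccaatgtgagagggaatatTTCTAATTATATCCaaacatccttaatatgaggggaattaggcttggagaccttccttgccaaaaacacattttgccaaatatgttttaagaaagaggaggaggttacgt
Myh2, chr11:67170827-67171026, plus strand: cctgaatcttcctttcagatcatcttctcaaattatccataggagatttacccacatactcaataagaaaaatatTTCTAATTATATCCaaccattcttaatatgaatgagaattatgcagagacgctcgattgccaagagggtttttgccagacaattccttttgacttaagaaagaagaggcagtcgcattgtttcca
Myh4, chr11:67237612-67237811, plus strand: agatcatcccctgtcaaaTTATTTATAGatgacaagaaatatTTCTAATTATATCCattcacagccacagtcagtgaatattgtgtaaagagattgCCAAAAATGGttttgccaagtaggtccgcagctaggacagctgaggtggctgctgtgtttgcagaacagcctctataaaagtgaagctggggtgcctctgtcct
Myh7, chr14:54994627-54994826, minus strand: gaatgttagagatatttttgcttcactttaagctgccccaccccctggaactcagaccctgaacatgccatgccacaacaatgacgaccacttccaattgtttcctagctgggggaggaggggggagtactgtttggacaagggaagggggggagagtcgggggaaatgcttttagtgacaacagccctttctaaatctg

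The run TTCTAATTATATCC was found as the longest string shared by the windows of *Myh1*, *Myh2*, *Myh4*, and *Myh8*. Its presence in these 4 was therefore set by the search. Its first base was at -160, -125, -158, and -54 from the RefSeq start site, respectively. Among 32851 mouse promoter windows searched on both strands over their 250 bases before the start, these 4 were the only ones to hold it, which is 0.0122% of windows. No match to it was present in the windows of *Myh3*, *Myh6*, *Myh7*, or *Myh7b*. A MEF2 match, an AT-rich motif bound by the MEF2 family, was present for *Myh1* at -211, *Myh4* at -182, and *Myh8* at -99, compared with 2.92% of all windows. A CArG match, the motif of serum response factor, was present for *Myh4* alone at -104, and 1.47% of windows held one. The other motifs searched were common. The E-box CANNTG was in 66.2% of windows and in those of *Myh3*, *Myh4*, *Myh6*, *Myh7*, *Myh7b*, and *Myh8*. The MCAT letters CATTCC were in 12.6% of windows and in those of *Myh1*, *Myh4*, *Myh6*, and *Myh7*, and the TATA letters TATAAA were in 12.4% and in those of *Myh1*, *Myh3*, *Myh4*, and *Myh8*, where 1 TATA match each in *Myh1*, *Myh4*, and *Myh8* overlapped the MEF2 match. These matches describe letters in the windows and carry no measurement of binding.

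**Figure D1:**
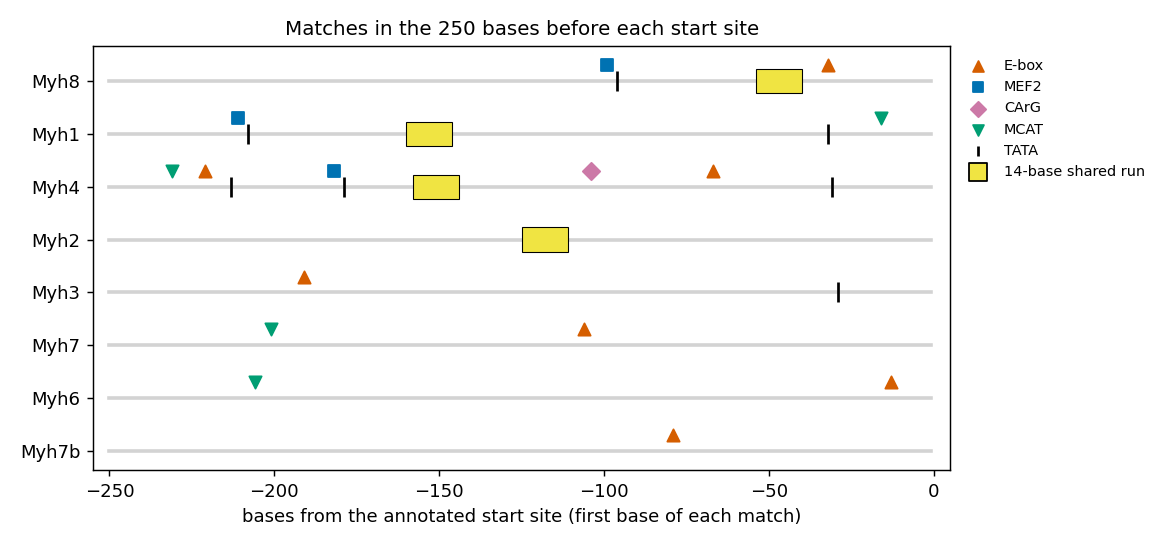
Positions of motif matches and of the 14-base shared run in the 250 bases before the RefSeq start site of each of the 8 genes (horizontal axis, bases from the start site). The shared run (yellow boxes) is present for Myh8, Myh1, Myh4, and Myh2, and MEF2 matches (blue squares) for Myh8, Myh1, and Myh4.

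The libraries held 22520404 to 27351766 counts each. Reads of the 8 genes made up 0.249% to 0.3165% of all counts in the control and Collagen I samples and 0.0565% to 0.0928% in the fibronectin and Geltrex samples. To compare levels between genes, counts were divided by the exon length of each gene and by library size scaled by TMM, which gives RPKM, a level per unit of exon length and of sequencing depth. The summed level of the family was 450.9 ± 36.6 RPKM (SD, n = 3) in the control, 455.9 ± 49.1 on Collagen I, 114.7 ± 22.9 on fibronectin, and 139.9 ± 13.6 on Geltrex.

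*Myh3* was the most abundant of the 8 genes in every sample. Its levels were 351, 409.65, and 369 RPKM in the control samples, 409, 430.0, and 344 on Collagen I, 108, 94.3, and 71.7 on fibronectin, and 119.94, 102, and 124 on Geltrex. The control and Collagen I samples overlapped and all lay above every fibronectin and Geltrex sample. *Myh1* came second in every sample, and *Myh8* and *Myh4* were the next in the means of each group. In the control, *Myh2* (3.22 ± 0.23 RPKM) and *Myh7* (3.14 ± 0.61) overlapped. On Collagen I, *Myh4* (5.36 ± 0.46) and *Myh7* (4.26 ± 0.84) overlapped, whereas all *Myh2* samples (2.56 ± 0.36) were below those of *Myh7*. On fibronectin, *Myh8* (2.54 ± 0.59) overlapped *Myh4* (2.01 ± 0.71), which in turn overlapped *Myh2* and *Myh7*. *Myh7b* and *Myh6* were the lowest in every group, and these 2 overlapped on fibronectin and Geltrex but not in the control or on Collagen I. Levels between genes depend on the gene model, chiefly for *Myh8*, whose annotated exons cover 11772 bases while its longest transcript has 6149. For *Myh7* these lengths are 8616 and 6230. With the longest transcripts as lengths, the mean of *Myh7* was above that of *Myh2* in every group. It was then also above that of *Myh4* on Collagen I.

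**Figure D2:**
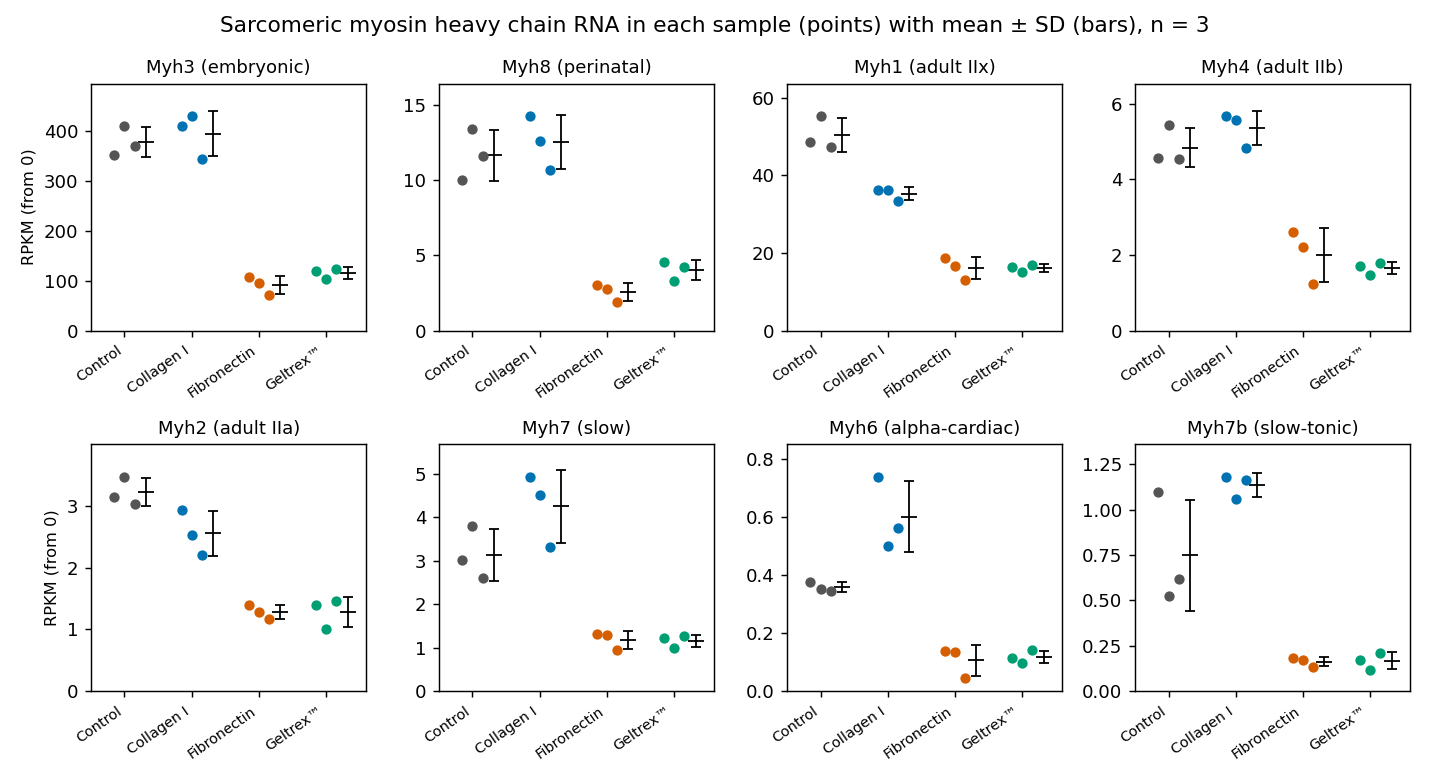
RPKM of the 8 genes (vertical axes from 0, a scale of its own for each gene), with 1 point per sample and bars for the mean ± SD of 3 samples. For each gene, fibronectin and Geltrex samples lie below all control and Collagen I samples, which for Myh3 are between 344 and 430.0 RPKM.

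Fibronectin against the control asked how the family differs on an adhesive glycoprotein. In a test for any difference among the 4 groups, 8 of 8 genes were called, where 53.3% of all genes were. All 8 genes were lower on fibronectin by edgeR's quasi-likelihood test, with p adjusted after Benjamini and Hochberg over 14499 genes, in a comparison in which 31.9% of all genes were called and 14.7% were called lower. The 8 log2 fold changes ran from -2.19 to -1.27 with a median of -1.70, beside a median of -0.016 over all genes tested. Each of the 8 also passed a fold of 2, as did 4.23% of all genes in this direction. In this comparison none of the 8 genes had overlapping groups, and 20.3% of all genes tested were lower without overlap.

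The developmental genes had the log2 fold changes farthest from 0 among the 3 most abundant genes. *Myh3* fell by 2.04 on the log2 scale (SE 0.14, edgeR adjusted p = 3.72e-08). *Myh8*, at 9.99, 13.4, and 11.6 RPKM in the control and 2.99, 2.76, and 1.88 on fibronectin, fell by 2.19 (SE 0.17, edgeR adjusted p = 1.51e-07). Every fibronectin sample of both genes was under every control sample, by a wide margin. Of the adult fast genes, *Myh1* was at 48.5, 55.4, and 47.3 RPKM in the control and 18.7, 16.5, and 13.0 on fibronectin, and fell by 1.65 (SE 0.11, edgeR adjusted p = 4.00e-08). *Myh2* was at 3.15, 3.47, and 3.03 RPKM against 1.39, 1.29, and 1.16, and fell by 1.33 (SE 0.14, edgeR adjusted p = 3.50e-06). Both type 2X and type 2A messages were thus lower in all fibronectin samples than in any control sample. *Myh4* was at 4.56, 5.44, and 4.54 RPKM against 2.60, 2.21, and 1.22, and fell by 1.27 (SE 0.19, edgeR adjusted p = 0.000109). Fibronectin replicate 3 was the lowest of its group for each of the 8 genes, and for *Myh4* it lay apart from the other fibronectin samples.

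The slow and cardiac genes were also lower. *Myh7* was at 3.02, 3.80, and 2.60 RPKM in the control and 1.31, 1.29, and 0.950 on fibronectin, a log2 fold change of -1.41 (SE 0.17, edgeR adjusted p = 1.64e-05). *Myh6* had 64, 65, and 55 reads in the control and 25, 22, and 8 on fibronectin, a log2 fold change of -1.75 (SE 0.30, edgeR adjusted p = 0.000462). *Myh7b* had 183, 95, and 97 reads against 33, 27, and 23, a log2 fold change of -2.19 (SE 0.28, edgeR adjusted p = 2.35e-05). These 2 genes rest on few reads, and control replicate 1 held nearly as many *Myh7b* reads as both other control samples together.

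On Geltrex, the same control samples were used, so this comparison shares its control with the former. All 8 genes were lower here too, where 33.0% of all genes were called and 16.6% were called lower. Their log2 fold changes ran from -2.16 to -1.33 with a median of -1.58 (-0.012 over all genes), and the groups did not overlap for any of the 8, as for 25.1% of genes tested in this direction. Each was past a fold of 2, which 4.99% of all genes were when lower. *Myh3* fell by 1.71 (SE 0.14, edgeR adjusted p = 1.47e-07). *Myh8*, at 4.53, 3.26, and 4.22 RPKM on Geltrex, fell by 1.54 (SE 0.17, edgeR adjusted p = 3.17e-06). *Myh1* was at 16.4, 14.99, and 17.0 RPKM and fell by 1.65 (SE 0.11, edgeR adjusted p = 3.16e-08). The Geltrex samples of all 3 genes were close to each other and far under the control. *Myh4*, at 1.70, 1.46, and 1.79 RPKM, fell by 1.55 (SE 0.19, edgeR adjusted p = 1.38e-05), and *Myh2*, at 1.39, 1.01, and 1.46 RPKM, by 1.33 (SE 0.14, edgeR adjusted p = 2.69e-06). *Myh7*, at 1.22, 1.003, and 1.26 RPKM, fell by 1.44 (SE 0.17, edgeR adjusted p = 1.08e-05). Adult fast and slow messages were thus lower together. *Myh6*, with 18, 16, and 21 reads, fell by 1.61 (SE 0.30, edgeR adjusted p = 0.000688), and *Myh7b*, with 27, 19, and 31 reads, by 2.16 (SE 0.28, edgeR adjusted p = 2.17e-05).

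Markers of myotubes and of cycling cells moved along with these differences. Of the 12 myotube markers, which include creatine kinase, skeletal actin, and the fusion genes, 12 were lower on fibronectin (median log2 fold change -1.93) and 12 on Geltrex (median -1.49). Their summed level ranged from 6095 to 7109 CPM (counts scaled to library size, without length) in the control, 6345 to 6726 on Collagen I, 2186 to 2560 on fibronectin, and 2978 to 3193 on Geltrex. Of 9 markers of undifferentiated or cycling myoblasts, 5 were higher on fibronectin and 5 on Geltrex, namely the proliferation genes *Mki67*, *Top2a*, *Ccnb1*, *Cdk1*, and *Ccna2* on both, while *Pax7*, *Myf5*, *Id1*, and *Id3* were not called. Their summed level was 193.4 to 271.7 CPM over the control and Collagen I samples and 603.6 to 771.6 CPM over the fibronectin and Geltrex samples. In bulk RNA, fewer cells of a type and less RNA per cell cannot be told apart. The part of the cycling cells in the myosin differences was not tested.

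Defining genes of other lineages were near 0, among them osteocalcin (*Bglap*, 0 to 2 reads in a sample), *Ibsp* (0 reads), adiponectin (*Adipoq*, 0 to 2), and the atrial genes *Nppa* (0 to 1) and *Myl7* (0). Of the 5 osteoblast, 5 adipocyte, and 6 cardiomyocyte markers, 1, 1, and 3 passed the filter on low counts. Summed levels over the control and Collagen I samples and over the fibronectin and Geltrex samples were 49.97 to 68.1 and 66.8 to 92.5 CPM for the osteoblast list, nearly all from *Runx2*, and 10.3 to 13.5 and 15.02 to 18.0 CPM for the adipocyte list, nearly all from *Pparg*. The cardiomyocyte list, at 775 to 876 and 222 to 323 CPM, was nearly all *Tnnt2*, which differentiating skeletal muscle also expresses. *Nppb*, a natriuretic peptide of that list with 5 to 88 reads in a sample, had log2 fold changes of 1.35 on fibronectin and 3.10 on Geltrex (edgeR adjusted p = 0.0417 and 4.36e-05), and *Tnni3* was not called.

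Library size was also set by the summed myotube markers, a scaling chosen after seeing the data. The median log2 fold change of all genes then became 1.49 for fibronectin against the control and 1.09 for Geltrex against the control. The most abundant markers, *Des* and *Acta1*, weigh most in this sum. Their log2 fold changes were -0.65 and -1.93 on fibronectin and -0.28 and -1.25 on Geltrex. The medians over the 12 markers were -1.93 on fibronectin and -1.49 on Geltrex. Values on this scale are therefore changes relative to the summed counts of the markers, and not to the typical marker. On that scale 3 of the 8 genes stayed lower on fibronectin by edgeR's quasi-likelihood test, namely *Myh3* (-0.54, adjusted p = 0.000528), *Myh8* (-0.69, adjusted p = 0.00017), and *Myh7b* (-0.69, adjusted p = 0.0222). *Myh1* (-0.15) and *Myh6* (-0.25) were not called, and *Myh2* (0.18), *Myh4* (0.23), and *Myh7* (0.10) turned in direction, also without a call. On Geltrex, *Myh1* (-0.54), *Myh3* (-0.61), *Myh4* (-0.45), *Myh7b* (-1.06), and *Myh8* (-0.44) were called lower, and *Myh2* (-0.23), *Myh6* (-0.51), and *Myh7* (-0.33) were not called. How much of the family's difference comes with the myotube markers was not tested beyond this scaling.

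**Figure D3:**
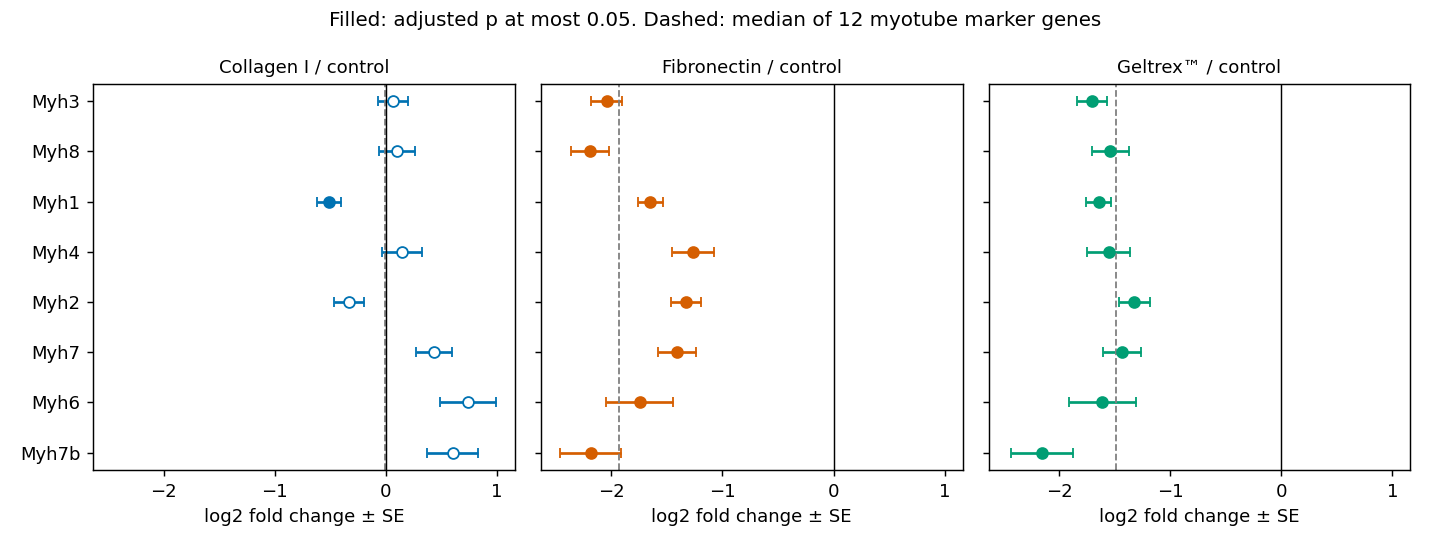
Log2 fold changes of the 8 genes on Collagen I, fibronectin, and Geltrex against the control (horizontal axis) with bars of 1 SE, filled where called, and the median of 12 myotube markers as a dashed line. Values against the control lie between -2.19 and -1.27 for fibronectin and between -2.16 and -1.33 for Geltrex, and spread on both sides of 0 for Collagen I.

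Collagen I against the control asked whether a fibrillar collagen shifts the isoforms. Of the 8 genes, 1 was called, *Myh1*, in a comparison in which 1.12% of all genes were called, 0.917% were called lower, and 0.110% were lower past a fold of 2, which *Myh1* was not. *Myh1*, the type 2X gene, was at 36.4, 36.1, and 33.4 RPKM on Collagen I against 48.5, 55.4, and 47.3 in the control, with no overlap. It fell by 0.51 on the log2 scale (SE 0.11, edgeR adjusted p = 0.0335). The size of this difference varied little when any 1 of the 12 samples was left out (-0.56 to -0.43), but the call was lost without control replicate 2 or 3, without any 1 of the Collagen I samples, and without any 1 of the Geltrex samples, which enter through the shared estimate of spread, with edgeR adjusted p between 0.0588 and 0.161 in these 8 fits.

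The other 7 genes were not called on Collagen I against the control. The slow gene *Myh7* was at 4.94, 4.52, and 3.31 RPKM against 3.02, 3.80, and 2.60, and its log2 fold change was 0.44 (SE 0.16, edgeR adjusted p = 0.212). Collagen I replicate 3 lay under control replicate 2 for this gene. *Myh6* was at 0.740, 0.502, and 0.564 RPKM against 0.378, 0.354, and 0.347, a log2 fold change of 0.74 (SE 0.25, edgeR adjusted p = 0.175), with no overlap. *Myh7b* was at 1.18, 1.06, and 1.16 RPKM against 1.10, 0.525, and 0.620, a log2 fold change of 0.60 (SE 0.23, edgeR adjusted p = 0.226). Control replicate 1 set the overlap for *Myh7b*, and without that sample the log2 fold change was 0.99 with an edgeR adjusted p of 0.0235. The embryonic gene *Myh3* (0.07, SE 0.13), the perinatal gene *Myh8* (0.10, SE 0.16), and *Myh4* (0.15, SE 0.18) had log2 fold changes smaller than their errors. *Myh2*, at 2.94, 2.52, and 2.21 RPKM against 3.15, 3.47, and 3.03, had a log2 fold change of -0.33 (SE 0.13, edgeR adjusted p = 0.258) without overlap. Groups that did not overlap were thus found for *Myh1* and *Myh2* in the lower direction, where 9.15% of all genes had none, and for *Myh6* in the higher direction, where 8.18% had none.

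Set against the other coatings, Collagen I showed all 8 genes higher. Against fibronectin, 45.0% of all genes were called and 22.1% were called higher, and against Geltrex these shares were 37.1% and 18.2%. The Collagen I samples are shared by these comparisons. No gene of the 8 had overlapping groups in either, while 25.9% and 27.1% of all genes tested were higher without overlap. The median log2 fold change of the 8 was 1.98 and 1.74, beside 0.023 and 0.026 over all genes. Past a fold of 2 were 7 of the 8 in each, all but *Myh2*, compared with 4.86% and 4.77% of all genes in this direction. On Collagen I, *Myh8* was at 14.3, 12.6, and 10.7 RPKM and *Myh4* at 5.69, 5.57, and 4.84, and the values of the other genes and of both other coatings are given above. The largest differences among the 8 were those of *Myh7b*, with log2 fold changes of 2.79 (SE 0.27) against fibronectin and 2.76 (SE 0.27) against Geltrex, and of *Myh6*, with 2.48 (SE 0.29) and 2.35 (SE 0.29). *Myh3* was higher by 2.11 (SE 0.14) and 1.77 (SE 0.14), and *Myh8* by 2.30 (SE 0.17) and 1.64 (SE 0.17). The adult fast genes *Myh1* (1.14 and 1.13, SE 0.11 each) and *Myh2* (0.997 and 0.994, SE 0.14 each) had the smallest differences, and the slow gene *Myh7* stood at 1.85 (SE 0.17) and 1.87 (SE 0.17). The largest edgeR adjusted p of the 8 genes was 4.68e-05 against fibronectin and 5.24e-05 against Geltrex, both for *Myh2*.

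The scaling by myotube markers divided these genes. The median of all genes became -1.44 for Collagen I against fibronectin. On that scale *Myh1* (-0.33, adjusted p = 0.00885) and *Myh2* (-0.47, adjusted p = 0.00343) were lower on Collagen I in edgeR's quasi-likelihood test. This reverses their direction, and *Myh4* (-0.042) was not called. *Myh3* (0.65), *Myh6* (1.03), *Myh7* (0.38), *Myh7b* (1.33), and *Myh8* (0.83) remained higher. For Collagen I against Geltrex, where the median became -1.04, *Myh1* (0.07) and *Myh2* (-0.068) were not called. There *Myh3* (0.71), *Myh4* (0.64), *Myh6* (1.29), *Myh7* (0.81), *Myh7b* (1.70), and *Myh8* (0.58) were higher.

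Between fibronectin and Geltrex, 1 of the 8 genes was called, where 19.3% of all genes were called and 9.05% were called lower on fibronectin, and 2.26% of all genes were lower past a fold of 2, which none of the 8 was. This gene was *Myh8*, whose fibronectin samples (1.88 to 2.99 RPKM) were all under the Geltrex samples (3.26 to 4.53 RPKM), with a log2 fold change of -0.65 (SE 0.17, edgeR adjusted p = 0.0119). Non-overlap in this direction was found for 21.2% of all genes. Without Geltrex replicate 1, the *Myh8* difference was -0.56 and missed the threshold (edgeR adjusted p = 0.0675). *Myh3* had a log2 fold change of -0.34 (SE 0.13, edgeR adjusted p = 0.088) and *Myh4* one of 0.29 (SE 0.20, edgeR adjusted p = 0.333), and both depended on single fibronectin samples, since *Myh3* passed without replicate 1 (-0.48, edgeR adjusted p = 0.034) and *Myh4* without replicate 3 (0.55, edgeR adjusted p = 0.0084). The other 5 genes had log2 fold changes between -0.13 and 0.025, with edgeR adjusted p of 0.826 or more. The scaling by myotube markers moved the median of all genes to 0.40. Under it *Myh8* (-0.25) was not called, nor were *Myh3* (0.064), *Myh6* (0.26), and *Myh7b* (0.37), whose signs turned. In contrast, *Myh1* (0.40), *Myh2* (0.40), *Myh4* (0.68), and *Myh7* (0.43) were higher on fibronectin.

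The share of each gene in the family total does not depend on library scaling or on how much family RNA a sample holds. It was computed from RPKM in each sample, and an exact permutation test over all 369600 assignments of the 12 samples to the 4 groups asked whether a share differed among the groups. These 8 tests are not independent, since the shares of a sample sum to a constant, and their p-values are unadjusted. *Myh3* held 83.2%, 83.3%, and 84.1% of the family in the control samples, 86.1%, 87.2%, and 86.0% on Collagen I, 79.9%, 79.5%, and 79.6% on fibronectin, and 82.5%, 82.4%, and 82.6% on Geltrex. The 4 groups did not overlap, and the exact permutation p of 6.49e-05 was the smallest that the design allows. *Myh1* made up 11.5%, 11.3%, and 10.8% in the control, 7.66%, 7.33%, and 8.36% on Collagen I, 13.8%, 13.9%, and 14.4% on fibronectin, and 11.3%, 12.1%, and 11.3% on Geltrex (exact permutation p = 0.00026). The type 2X share was therefore lowest on Collagen I and highest on fibronectin, and the control and Geltrex overlapped. The separation of fibronectin from the control and Geltrex depended on *Myh3*, although the mean on fibronectin stayed the highest without it. With *Myh3* left out of the total, *Myh1* held 67.8% ± 0.72 in the control and 57.3% ± 2.24 on Collagen I. It then held 69.0% ± 1.51 on fibronectin, which overlapped the control, and 65.9% ± 2.1 on Geltrex.

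*Myh2* ranked the groups in a similar way, with 0.714% ± 0.029 (SD, n = 3) in the control, 0.561% ± 0.054 on Collagen I, 1.13% ± 0.14 on fibronectin, and 0.913% ± 0.088 on Geltrex (exact permutation p = 6.49e-05). *Myh4* held 1.07% ± 0.037 in the control, 1.18% ± 0.042 on Collagen I, 1.71% ± 0.31 on fibronectin, and 1.18% ± 0.013 on Geltrex (exact permutation p = 0.000649). All fibronectin samples had the highest *Myh4* shares, although replicate 3, at 1.35%, was well below the others at 1.92% and 1.86%. With *Myh3* left out of the total, that replicate (6.63%) was below all Collagen I samples (8.60% to 8.86%). The slow gene *Myh7* held 0.693% ± 0.092 in the control, 0.928% ± 0.107 on Collagen I, 1.03% ± 0.061 on fibronectin, and 0.830% ± 0.020 on Geltrex (exact permutation p = 0.00214). Its share was thus lowest in the control and overlapped between Collagen I and fibronectin. *Myh8* held 2.57% ± 0.18 in the control, 2.74% ± 0.23 on Collagen I, 2.21% ± 0.12 on fibronectin, and 2.85% ± 0.25 on Geltrex (exact permutation p = 0.0206), and 4.75%, 5.06%, 4.08%, and 5.25% when lengths were those of the longest transcripts. *Myh7b* had a mean share of 0.169% ± 0.080 in the control and 0.251% ± 0.038 on Collagen I (exact permutation p = 0.0464 over the 4 groups), and control replicate 1, at 0.260%, lay inside the Collagen I range of 0.215% to 0.291%. *Myh6*, from 0.051% to 0.156% of the family, did not pass (exact permutation p = 0.0677).

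**Figure D4:**
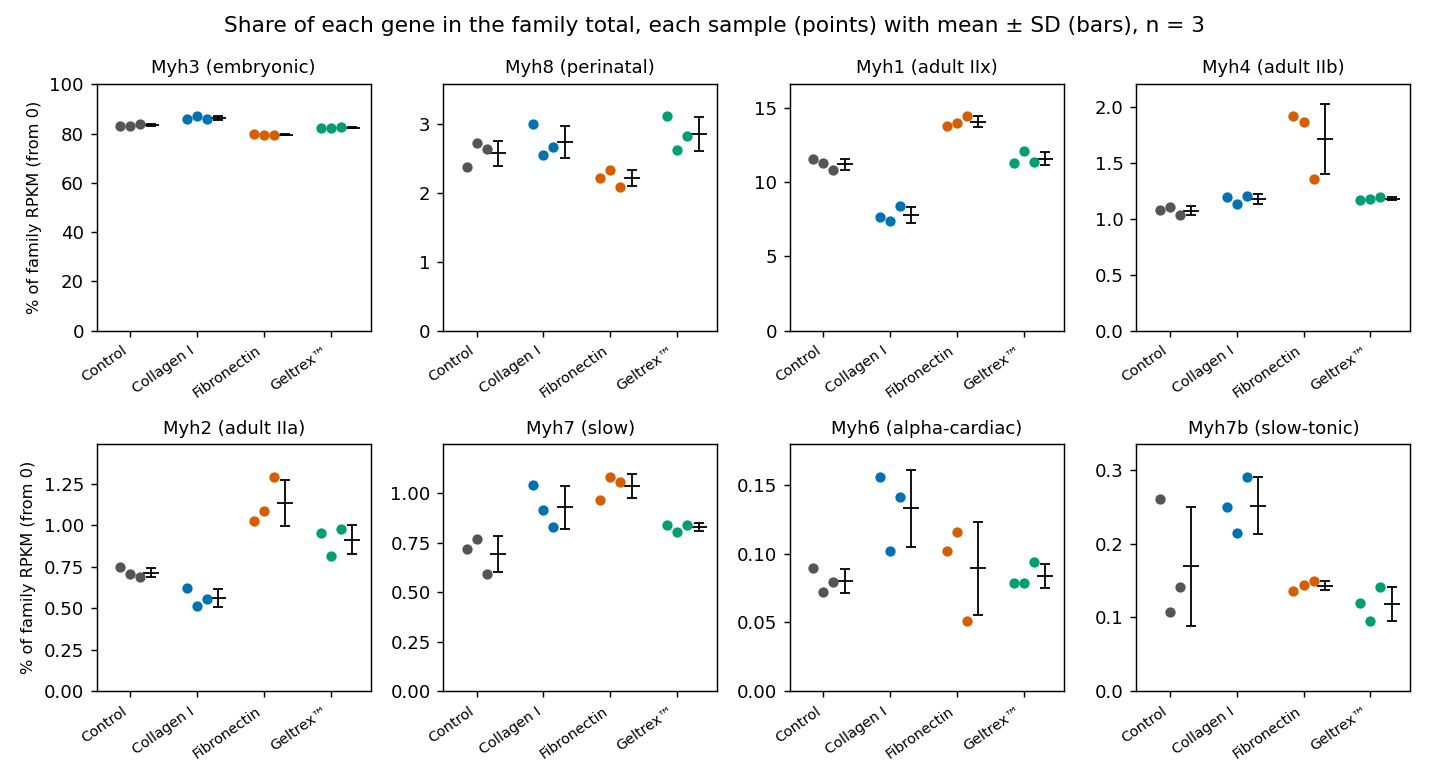
Share of each gene in the family total of its sample, in percent of summed RPKM, with 1 point per sample, bars for the mean ± SD of 3 samples, and vertical axes from 0 with a scale of its own for each gene. Myh3 is highest on Collagen I (86.0% to 87.2%) and lowest on fibronectin (79.5% to 79.9%), and Myh1 shows the opposite order.

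Grouped by stage and fiber type, the developmental genes *Myh3* and *Myh8* together made up 86.1% ± 0.56 of the family in the control, 89.2% ± 0.59 on Collagen I, 81.8% ± 0.21 on fibronectin, and 85.3% ± 0.31 on Geltrex. The adult fast genes *Myh1*, *Myh2*, and *Myh4* made up 13.0% ± 0.43, 9.52% ± 0.57, 16.9% ± 0.18, and 13.6% ± 0.35 in the same order, and *Myh7*, *Myh6*, and *Myh7b* 0.943% ± 0.13, 1.31% ± 0.12, 1.27% ± 0.070, and 1.03% ± 0.048. Fast genes thus held the largest share on fibronectin and the smallest on Collagen I. The samples of *Myh7*, *Myh6*, and *Myh7b* summed were higher on Collagen I and fibronectin than in the control, without overlap. The RPKM of the 3 adult fast genes over that of *Myh7* was 18.6, 16.9, and 21.1 in the control samples, 9.11, 9.79, and 12.2 on Collagen I, 17.3, 15.6, and 16.2 on fibronectin, and 15.9, 17.4, and 16.0 on Geltrex. All Collagen I samples were below all others, and the fibronectin and Geltrex samples overlapped the control. Of the 3 fast genes, *Myh1* over *Myh7* separated in this way (8.49 ± 1.43 for Collagen I, 16.3 ± 1.81 for the control), as did *Myh2* over *Myh7* (0.607 ± 0.0554 and 1.04 ± 0.126), while *Myh4* over *Myh7* overlapped (1.28 ± 0.16 and 1.56 ± 0.16). *Myh3* over *Myh1*, the embryonic over the main adult gene, was 7.48 ± 0.29 in the control, 11.1 ± 0.81 on Collagen I, 5.67 ± 0.14 on fibronectin, and 7.15 ± 0.27 on Geltrex. These ratios are descriptions of the 8 genes, with no test. Their absolute size depends on the exon lengths used, chiefly on that of *Myh7*.

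**Figure D5:**
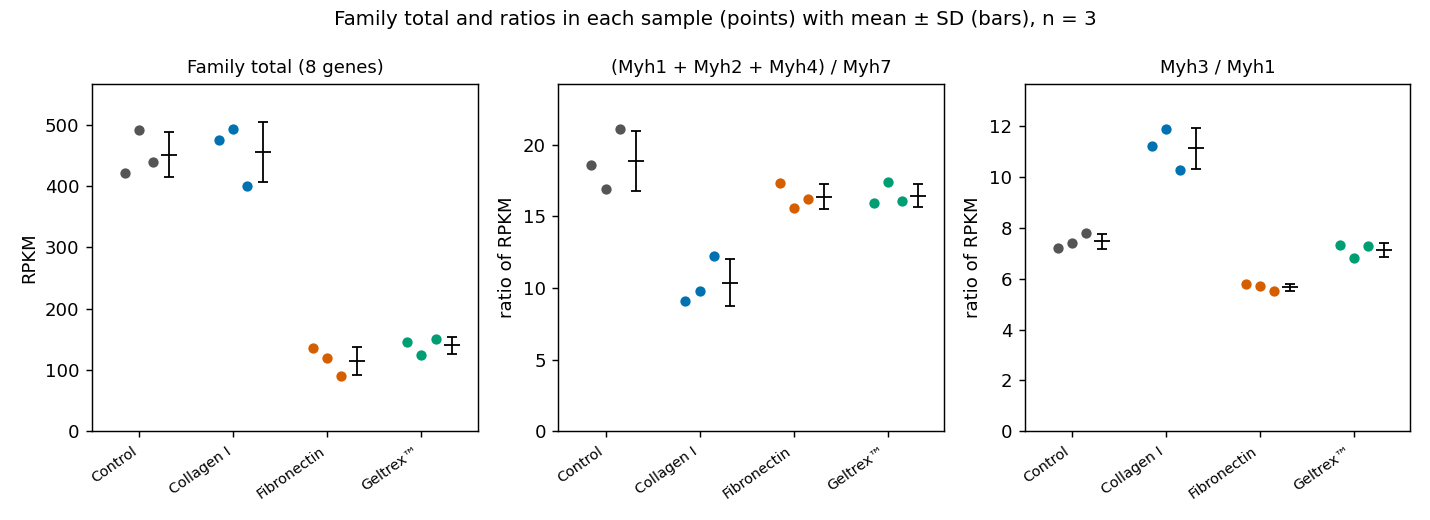
Family total in RPKM, RPKM of the adult fast genes over Myh7, and Myh3 over Myh1 by group, with 1 point per sample and bars for the mean ± SD of 3 samples. The RPKM of adult fast genes over Myh7 is 9.11 to 12.2 on Collagen I and 15.6 to 21.1 in the other groups.

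Partners of the heavy chains are given by lists and not by how they moved. Of 5 tested myosin light chains, which bind the neck of the heavy chain, 5 were lower on fibronectin (median log2 fold change -1.72), 5 were lower on Geltrex (median -1.38), 0 were called on Collagen I against the control, and 4 were lower on fibronectin than on Geltrex. The fast light chain *Mylpf* was at 2274 ± 114 CPM in the control, 2318 ± 97.9 on Collagen I, 784 ± 84.4 on fibronectin, and 1235 ± 25.2 on Geltrex. Of 16 tested genes of the thick filament and of myosin folding, 14 were lower on fibronectin (median -1.70) and 14 on Geltrex (median -1.38). Titin (*Ttn*), the giant spring of the sarcomere, was lower by -1.77 (SE 0.14) and -0.95 (SE 0.14), whereas the ubiquitous chaperones *Hsp90aa1* (0.18 and 0.12) and *Hsp90ab1* (-0.11 and -0.10) were not called. On Collagen I against the control, 1 of the 16 was called, and it was higher.

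Among 6 other myosin heavy chains, of which 4 were tested, the non-muscle genes *Myh9* and *Myh10*, which serve the cytoskeleton, were higher on both fibronectin and Geltrex, and the non-muscle gene *Myh14* was lower on fibronectin. *Myh9* was at 1645 ± 154 CPM in the control, 1337 ± 36.6 on Collagen I, 2140.0 ± 48.4 on fibronectin, and 2108 ± 36.7 on Geltrex, and *Myh10* at 129 ± 15.8, 119 ± 10.2, 192 ± 21.1, and 164 ± 5.83 CPM. Their log2 fold changes on fibronectin were 0.38 (SE 0.08, edgeR adjusted p = 0.00225) and 0.57 (SE 0.10, edgeR adjusted p = 0.000548). *Myh14*, with 3 to 30 reads in a sample, fell by 1.53 on fibronectin (SE 0.49, edgeR adjusted p = 0.0253) and had a log2 fold change of -0.88 on Geltrex (SE 0.46, edgeR adjusted p = 0.161). *Myh13*, with 4 to 20 reads, had log2 fold changes of -0.25 and -0.94 and was not called. Of 17 tested regulators of isoform choice, 2 were higher and 6 lower on fibronectin, 1 was higher and 8 lower on Geltrex, and 0 were higher and 1 lower on Collagen I. Among the most abundant of them, *Mef2a* (0.12 and 0.11), *Nfix* (-0.22 and -0.13), and *Tead1* (0.27 and -0.07) were not called on either coating. Less abundant regulators called lower on both included *Mef2c* (-1.296 and -1.425) and *Myog* (-2.096 and -1.758). *Myog* also belongs to the myotube markers.

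Across the 12 samples, the patterns most like those of the 8 genes were found by Pearson's r of log2 CPM over 12311 genes, as a description in which the points share the group differences above. *Myh3* was closest to *Lmod3* (r = 0.998), *Hrc* (0.995), and *Smpx* (0.992). *Myh8* was closest to *Ablim3* (0.989), *Pygm* (0.987), and *Lmod3* (0.987). *Myh1* and *Myh2* shared *Nav2* and *Chrna1*, the alpha subunit of the acetylcholine receptor, among their 3 closest, beside *Aen* for *Myh1* (0.986) and *Mttp* for *Myh2* (0.985). *Myh4* was closest to *Mef2c* (0.974), *Casz1* (0.972), and *Actn2* (0.970). *Myh7* was closest to *Tnfrsf19* (0.988), *Tmem252* (0.987), and *Fsd2* (0.984), *Myh6* to *Tnfrsf19* (0.967), *Padi2* (0.963), and *Nmrk2* (0.963), and *Myh7b* to *Taf13* (0.984), *Cbfa2t3* (0.980), and *Grip2* (0.978). Within the family, *Myh3* with *Myh8* (0.990) and *Myh1* with *Myh2* (0.981) were the most alike, and *Myh1* with *Myh6* (0.863) the least.

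Near-identical stretches limit how well reads can be assigned. Of all 150-base windows along the longest transcript, the share also present in a transcript of another gene was 6.50% for *Myh7*, 6.22% for *Myh1*, 5.53% for *Myh6*, 3.59% for *Myh2*, 1.60% for *Myh8*, 0.511% for *Myh4*, 0.306% for *Myh3*, and 0 for *Myh7b*. The longest reading frames were 91.7% identical between *Myh6* and *Myh7*, 90.9% between *Myh1* and *Myh2*, 90.1% between *Myh1* and *Myh4*, and 80.2% between *Myh1* and *Myh3*. The counting could have split shared reads. *Myh6*, at 8 to 115 reads beside 210 to 1048 for *Myh7*, is therefore the least certain of the 8. *Myh2*, at 175 to 676 reads beside 2129 to 9599 for *Myh1*, has the same limit. With 75-base windows, the shared part was 21.97% for *Myh1*, 19.7% for *Myh7*, 18.27% for *Myh2*, and 15.55% for *Myh6*, and lower for the other genes. Whether the counting used strand is not stated, so reads of a gene and its antisense partner cannot be told apart, although the partners were scarce (*Myhas* across *Myh1* at 0 to 11 reads, *9430073C21Rik* across *Myh2* at 7 to 76, and *Mhrt* across *Myh7* at 0 to 2). *Trpc4ap*, at 2962 to 4013 reads, overlaps 37 exon bases of *Myh7b*.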

How the data were processed

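Total RNA of 12 C2C12GFP samples was sequenced by the authors as 150-base read pairs. The authors deposited raw read counts per gene, made with FastQC, Trimmomatic, HISAT2, and featureCounts. The genome build, annotation, strand setting, and treatment of reads with several matches are not given in the sources used here, but all 55536 gene IDs are in GENCODE M21 (GRCm38), from which positions and exon lengths were taken. Samples were grouped by their labels, 3 in each of 4 groups. The 8 genes and all lists were chosen with earlier results of these data known.

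Counts were filtered with filterByExpr (minimum count 10, minimum total 15), scaled by TMM, and fitted in 1 model of 4 groups with edgeR 4.0.16 (quasi-likelihood test, R 4.3.3). A call was an adjusted p of at most 0.05 (Benjamini-Hochberg over 14499 genes). The study used DESeq2, which was run as an alternative (version 1.42.0). Shares were compared by an exact permutation test and were also computed with *Myh3* left out of the family total. All 8 genes were named, with the 3 genes most like each (mean of at least 1 CPM, log2 CPM with a prior count of 2), and at most 4 genes of each list, those with the highest mean CPM. The values of 1 list gene are not reported here. Genes named beyond this to say which markers or regulators were called or were near 0, and the antisense partners, were chosen after their values were seen. The alternatives were RLE scaling, no filter, at least 10 counts in every sample, only the compared samples, a replicate block, a fold of at least 2, the 8 genes left out of library size, leaving out each sample, other lengths for the shares, and, chosen after seeing the data, library sizes from 12 myotube markers and summed Geltrex samples. No pair of samples within a group agreed within sampling noise (chi-square per degree of freedom of 2.17 or more). The Geltrex pairs, at 2.17 to 4.54, were more alike than any pair of the other groups, at 7.73 to 65.1. Geltrex samples enter the estimate of spread that all groups share. The fit was tested on simulated data. Depth was 22520404 to 27351766 counts, so the precision of *Myh6* and *Myh7b* is limited by reads of 8 to 189 per sample.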

Additional observations from a re-analysis of the deposited data

How the results depend on the processing

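All 8 genes were called in the same direction in the 4 comparisons of fibronectin or Geltrex with the control or Collagen I under RLE scaling, DESeq2, no filter, the fits on only the compared samples, summed Geltrex samples, and without any 1 sample; *Myh6* could not be fitted where at least 10 counts were asked in every sample. With summed Geltrex samples that arm is a lone sample, assumed to vary like the other groups. For Collagen I against the control (1 gene called), the number was 3 without a filter (*Myh1*, *Myh7*, *Myh7b*), 0 with only the compared samples, 0 with summed Geltrex samples, 0 with the myotube scaling, 0 with a fold of at least 2, and 0 to 2 without 1 sample. For fibronectin against Geltrex (1 gene), it was 2 without a filter (*Myh3*, *Myh8*), 0 with summed Geltrex samples, 4 with the myotube scaling, 0 with a fold of at least 2, and 0 to 2 without 1 sample. The causes were not tested.

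The myotube scaling left 3 calls for fibronectin and 5 for Geltrex against the control, out of 8. Its reversed log2 fold changes were *Myh2* 0.18, *Myh4* 0.23, and *Myh7* 0.10 for fibronectin against the control, *Myh1* -0.33, *Myh2* -0.47, and *Myh4* -0.042 for Collagen I against fibronectin, *Myh2* -0.068 for Collagen I against Geltrex, and *Myh1* 0.40 and *Myh2* 0.40 for fibronectin against Geltrex, where *Myh3* (0.064), *Myh6* (0.26), and *Myh7b* (0.37), not called under either scaling, turned in sign as well. In that comparison, signs of uncalled genes among *Myh1*, *Myh2*, *Myh6*, *Myh7*, and *Myh7b* also turned with DESeq2, with summed Geltrex samples, or without 1 fibronectin or Geltrex sample, with no call.

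Shares passed for 5 to 8 of 8 genes without 1 sample. Departures from the group mean had correlations of -0.154 to 0.225 between samples that share a number. Samples with different numbers were not compared in this way. These values therefore cannot decide whether the numbers pair the samples. With the replicate block, 1 gene was called for Collagen I against the control (*Myh1*, -0.51), 8 in each of the 4 comparisons above, and 1 for fibronectin against Geltrex (*Myh8*, -0.67).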

Other observations

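The microRNA genes inside the myosin genes had no reads. *Mir499*, inside *Myh7b*, *Mir208a*, inside *Myh6*, and *Mir208b*, inside *Myh7*, had 0 reads in all 12 samples. Their annotated lengths are 79, 83, and 77 bases, respectively, which is shorter than a read of these libraries. The counts therefore cannot show whether these microRNAs were expressed, which was not tested. The antisense gene *9430073C21Rik* overlaps the end of *Myh2* on the opposite strand of chromosome 11. It had 63, 76, and 42 reads in the control samples, 34, 55, and 26 on Collagen I, 12, 7, and 17 on fibronectin, and 8, 27, and 12 on Geltrex. The control overlapped neither fibronectin nor Geltrex, where 20.3% and 25.1% of all genes tested were lower without overlap. It shares 237 exon bases with *Myh2*, and with the strand setting unknown its reads cannot be told from those of *Myh2*.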
